A study of Mus musculus with 36 samples.

Results

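The genes described here switch signals off inside the cell. They are 7 dual-specificity phosphatases that act on MAP kinases (Dusp1, Dusp4, Dusp5, Dusp6, Dusp8, Dusp10 and Dusp16), a pair of cyclic AMP phosphodiesterases (Pde4b and Pde4d) and Rgs2, a regulator of G-protein signalling. These 10 of the 46078 genes in the deposited count table were listed by name, and the list was chosen from the results of these same libraries. No record says which comparison led to each name, although a higher Rgs2 in L lungs at day 1 was among the results known. Every value below therefore describes these libraries. An adjusted p-value sets a difference against the spread between libraries and depends on all genes tested. It is given as a description, not as independent evidence. All 10 were found in the count table and in the abundance tables, and all 10 passed the filter on low counts that left 16903 genes.

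The lungs came from female wild-type C57BL/6 mice, an inbred laboratory strain, given 1 intranasal instillation. D mice received the carrier alone, 5% dextrose in water (0 μg of graphene oxide), and US, S and L mice received 50 μg of graphene oxide in the same carrier, as sheets of ultrasmall, small or large lateral size in the study's naming. Mice were 9, 10 and 13 weeks old at days 1, 7 and 28, so that age and time after instillation cannot be told apart, and each of the 12 groups had 3 libraries (n = 3 throughout, 36 in all). The labels do not tie libraries to animals, and the spread behind each p-value is that of libraries, which may be technical. The large airways were removed, samples were small portions of every lobe, and in such bulk tissue fewer cells of a type and less RNA per cell cannot be told apart.

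MAP kinases (ERK, JNK and p38) carry growth, stress and inflammatory signals and are active only while phosphorylated, and the phosphatases of this family remove those phosphates. Many of their genes are switched on by the pathway they restrain, which makes them feedback brakes. Phosphodiesterases of the PDE4 type degrade cyclic AMP, the second messenger of adrenergic and prostaglandin receptors, and are the target of anti-inflammatory drugs used in airway disease. Rgs2 speeds the turn-off of G proteins, chiefly those of the Gq class, and is known for limiting smooth muscle contraction.

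Total counts per library were 16154696 to 23808264 in 35 libraries and 80566751 in S day 7 replicate 2. Levels are given as CPM (the share of a library's counts, scaled to the usual CPM total) when 1 gene is compared between samples, and as the deposited TPM (transcripts scaled for length and depth) when genes are compared with each other. Markers of lung were present in every library: Sftpc of alveolar type 2 cells stood at 9941 to 27690 CPM, Ager of type 1 cells at 1979 to 3782 CPM and Pecam1 of endothelium at 702.5 to 1121 CPM. Adipoq, a fat cell marker, ranged from 0 to 5.26 CPM with 5 libraries at 0, and Myh6, a heart muscle marker, from 0 to 43.6 CPM with 1 library at 0. A gene is said to be called, or to have risen or fallen, where edgeR's two-sided quasi-likelihood test gave an adjusted p under 0.05 over all 16903 genes. DESeq2, a second tool, was run as an alternative, and its calls are named as such. The share of all genes that DESeq2 called is not given, so nothing about the members or lists is read from its counts.

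Dusp1, a nuclear phosphatase of p38, JNK and ERK, was the most abundant member, with a median of 173.6 TPM over the 36 libraries, and Rgs2 followed at 84.6 TPM. Dusp6, a cytoplasmic phosphatase that prefers ERK, had a median of 58.5 TPM, Pde4b 48.1 TPM and Dusp16, a phosphatase of JNK and p38, 26.4 TPM. The remaining medians were 11.3 TPM for Pde4d, 9.56 TPM for Dusp5, 9.34 TPM for Dusp8, 7.35 TPM for Dusp4 and 6.37 TPM for Dusp10. Dusp16 exceeded Pde4d in 36 of 36 libraries and Dusp1 exceeded Rgs2 in 35. Dusp6 exceeded Pde4b in only 22, Pde4d exceeded Dusp5 in 23 and Dusp5 exceeded Dusp8 in 20, so these neighbours in the order were not separated beyond their spread.

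**Figure D1:**
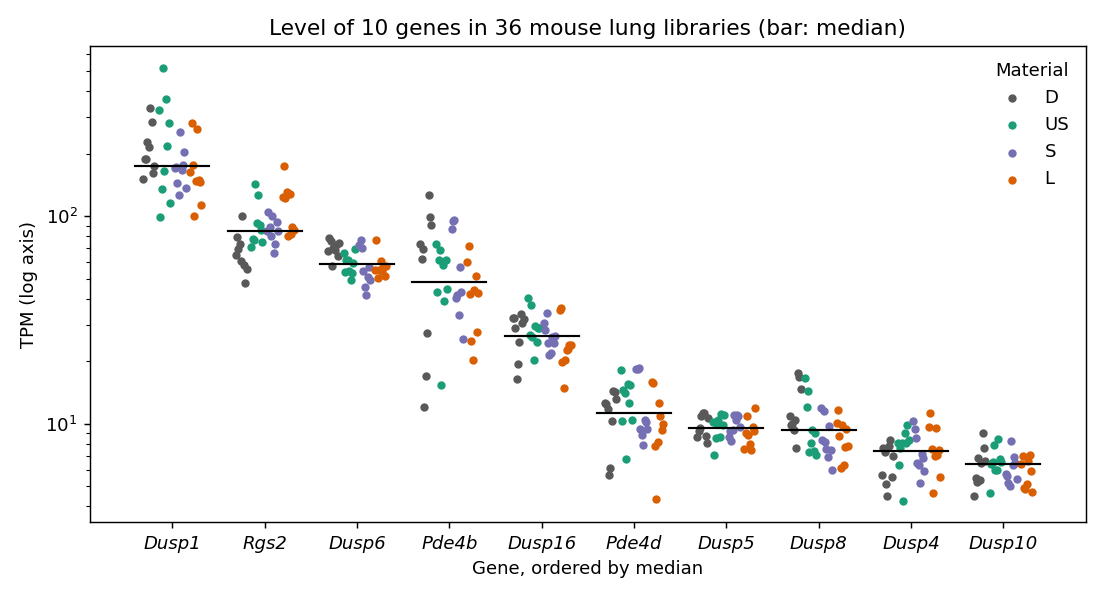
Level of the 10 genes in 36 lung libraries as deposited TPM (log axis), each point 1 library, coloured by material, with a bar at the median. Dusp1 lies highest with a median of 173.6 TPM and Dusp10 lowest with 6.37 TPM. Pde4b spreads most widely on the log axis, from 12.1 to 126.5 TPM.

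At day 28 the D lungs stood apart in Pde4b, Dusp8 and Rgs2, and all 3 exposed groups lay on the same side of them. Pde4b and Dusp8 were 1.92-fold to 2.15-fold lower in US, S and L lungs than in D, and Rgs2 was 1.63 to 1.70 times as high. Dusp16 also lay below D in all 3 without overlap, by smaller differences that were not called. The 3 comparisons share the same D libraries, so they are not 3 independent observations.

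Pde4b encodes the phosphodiesterase that is prominent in leukocytes. It spans chromosome 4 from 102087543 to 102607259 on the plus strand of GRCm38, exons and introns included. In D lungs at day 28 it stood at 222.4, 176.7 and 148.2 CPM. The US libraries had 81.9, 102.3 and 78.0 CPM, the S libraries 99.5, 79.5 and 76.7 CPM, and the L libraries 92.2, 93.1 and 78.2 CPM. Every D library lay above every exposed library, and the 3 D day 28 values were also above those of all 33 other libraries, whose highest value was 146.5 CPM. The fitted log2 fold change against D was -1.05 ± 0.18 (SE) for US, -1.10 ± 0.18 for S and -1.08 ± 0.18 for L, with adjusted p of 0.0119, 0.00142 and 0.000477. On the deposited TPM the means were 105.3 ± 18.9 (SD) in D against 48.3 ± 11.7 in US, 41.9 ± 15.7 in S and 40.6 ± 12.2 in L. The direction was the same on TPM, but limma on log2(TPM + 1) gave adjusted p of 0.838, 0.221 and 0.0773, so none of the 3 calls held there. Leaving out D replicate 1, US replicate 1 or US replicate 3 ended the call for US (adjusted p up to 0.143), as did a fit of only the D and US groups of that day, whereas the calls for S and L held without any 1 library.

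Dusp8 encodes a phosphatase of JNK and p38. It spans chromosome 7 from 142079490 to 142095843 on the minus strand. D lungs at day 28 had 45.5, 43.9 and 36.7 CPM. US lungs had 19.1, 22.2 and 16.9 CPM, S lungs 25.1, 19.4 and 15.9 CPM, and L lungs 20.2, 25.9 and 20.7 CPM. Again no exposed library reached a D library of that day, and only 1 of the 33 other libraries, a US library of day 1, exceeded the lowest of them. The log2 fold change was -1.10 ± 0.19 for US, -1.06 ± 0.19 for S and -0.94 ± 0.19 for L (adjusted p = 0.0119, 0.00564 and 0.00453). Dusp8 kept its call in all 9 alternative settings for S and for L and in 8 of 9 for US. Without 1 library it was lost for US in 4 of 6 cases (D replicates 1 and 2, US replicates 1 and 3; adjusted p up to 0.158), for S without S replicate 2 or 3 (up to 0.0893) and for L without L replicate 1 or 3 (up to 0.0529).

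Rgs2 spans chromosome 1 from 143999338 to 144004161 on the minus strand. D lungs at day 28 had 85.1, 72.9 and 78.9 CPM, against 140.9, 125.3 and 116.6 CPM in US, 112.2, 145.2 and 133.8 CPM in S and 129.7, 142.9 and 137.3 CPM in L. All 3 D values lay below those of the 33 other libraries, the lowest of which was 94.8 CPM. The log2 fold change was 0.76 ± 0.17 for L, which was called (adjusted p = 0.0099). The fold changes of 0.71 ± 0.17 for US and 0.72 ± 0.17 for S were of like size and were not called (adjusted p = 0.153 and 0.0578). The call for L was lost without D replicate 2 (adjusted p = 0.0616) and with limma on TPM, and DESeq2 called Rgs2 in all 3 comparisons.

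Upstream sequence was read because cyclic AMP, which PDE4 enzymes degrade, acts on genes through a known DNA element. RefSeq promoter windows (GRCm38.p6, 250 bases before to 50 after a gene start) were at hand for 9 of the 10 genes, in 12 windows of which Pde4b has 4. A full cyclic AMP response element, TGACGTCA, was searched on both strands. So were its half-site TGACG, which every full element also holds once on each strand, the AP-1 site TGANTCA and the E-box CACGTG. The full element stood in the windows of Dusp8 and Dusp1 only, that is in 2 of 9 genes and 2 of 12 windows. Of all 32851 windows of that length, 1.79% hold it. Half-sites were found in 6 of 9 genes and 6 of 12 windows (20.8% of all windows), an E-box in 1 window (7.15%) and an AP-1 site in 0 (7.81%). The 200 bases from -250 to -51 relative to the RefSeq start are shown for the genes called at day 28 with a single start, and for Dusp1, with these motifs in capitals, 5′ to 3′ on the minus strand that carries each gene.
Dusp8 (chr7:142095335-142095534): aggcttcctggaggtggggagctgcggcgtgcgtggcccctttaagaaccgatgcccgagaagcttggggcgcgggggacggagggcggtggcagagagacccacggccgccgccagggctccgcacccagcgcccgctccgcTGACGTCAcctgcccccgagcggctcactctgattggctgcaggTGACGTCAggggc
Rgs2 (chr1:144004200-144004399): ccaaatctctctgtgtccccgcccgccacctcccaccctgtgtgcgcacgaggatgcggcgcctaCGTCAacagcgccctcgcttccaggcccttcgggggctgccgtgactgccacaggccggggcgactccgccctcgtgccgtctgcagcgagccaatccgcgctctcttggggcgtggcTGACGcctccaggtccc
Dusp1 (chr17:26508523-26508722): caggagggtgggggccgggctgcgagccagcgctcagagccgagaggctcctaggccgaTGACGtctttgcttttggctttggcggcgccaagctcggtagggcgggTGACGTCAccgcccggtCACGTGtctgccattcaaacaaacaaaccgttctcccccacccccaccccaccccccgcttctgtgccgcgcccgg
Dusp8 holds 2 full elements, the nearer of which begins 63 bases before the start, Dusp1 holds 1 at 143 bases, and Rgs2 holds 2 half-sites at 185 and 67 bases. None of the 3 stretches overlaps an exon in GENCODE vM21, although the one of Dusp8 lies inside the gene span that the deposited tables give. A match is a description of letters and says nothing about binding in these lungs.

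**Figure D2:**
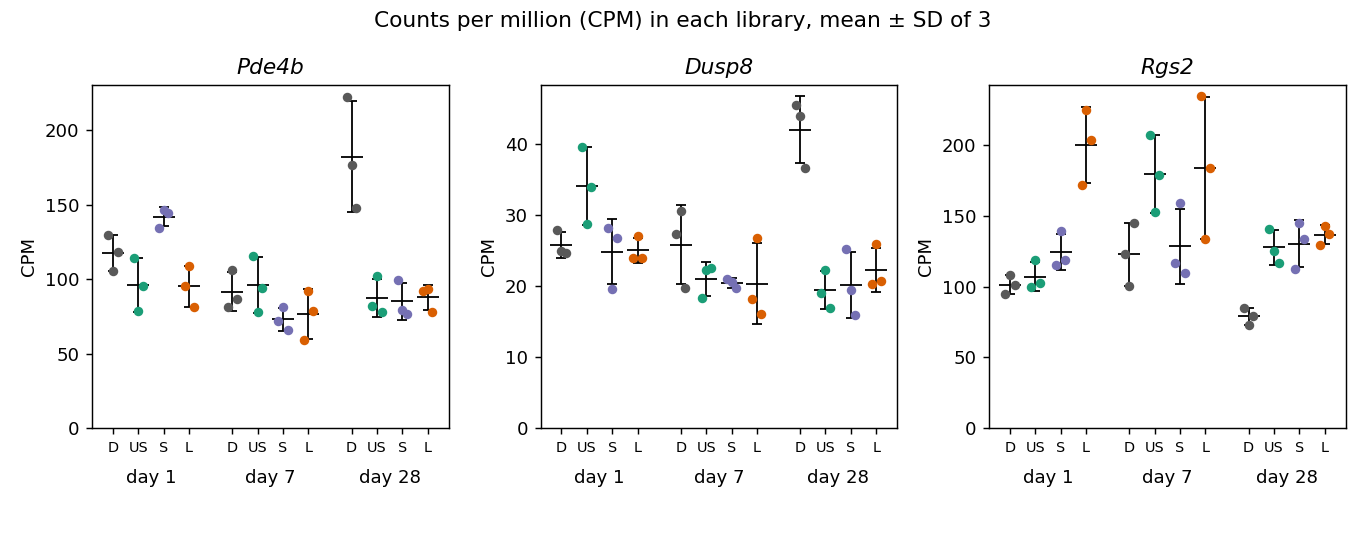
CPM of Pde4b, Dusp8 and Rgs2 in each library, by material (D carrier, US, S and L graphene oxide) and day, with the mean and SD of 3 libraries. At day 28 the D libraries lie at 148.2 to 222.4 CPM for Pde4b and 36.7 to 45.5 CPM for Dusp8, above all exposed libraries of that day, and at 72.9 to 85.1 CPM for Rgs2, below them.

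The share of all tested genes called at day 28 was 0.0237% for US against D, 0.237% for S and 2.15% for L. By direction, US had 0% higher and 0.0237% lower, S 0.0887% higher and 0.148% lower, and L 1.25% higher and 0.893% lower. Members called were 2 of 10 for US and for S, Pde4b and Dusp8 in both cases, and 3 of 10 for L with Rgs2 added. Since the list was drawn up with results in view, nothing is read from these shares. Groups did not overlap in CPM for 4 members in US, 6 in S and 7 in L, where 15.3%, 22.8% and 30.9% of all genes did not overlap. The median fitted log2 fold change of the 10 members was -0.02, -0.28 and -0.38, against 0.01, 0.00 and 0.00 over all genes tested.

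The 7 members that were not called against D at day 28 lay closer to D. Dusp6 had 104.8 ± 5.89 CPM (SD) in D and 79.4 ± 6.18 CPM in S, with no overlap, and its log2 fold change was -0.41 ± 0.12 in S (adjusted p = 0.158) and -0.31 ± 0.12 in L (adjusted p = 0.173). Dusp16 had 81.8 to 90.4 CPM in D and 62.2 to 68.3 CPM in L, a difference of -0.42 ± 0.13 (adjusted p = 0.0958). It also lay below every D library in US (65.3 to 74.55 CPM, -0.24 ± 0.13) and in S (65.45 to 72 CPM, -0.30 ± 0.13). Pde4d differed by -0.41 ± 0.22 in S and -0.45 ± 0.22 in L. In both genes the D and L libraries did not overlap, and a fit of only the D and L groups of that day called them. Dusp1, Dusp4, Dusp5 and Dusp10 ranged from -0.54 to 0.34 over the 3 materials, within 2 SE of 0 in every case.

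**Figure D3:**
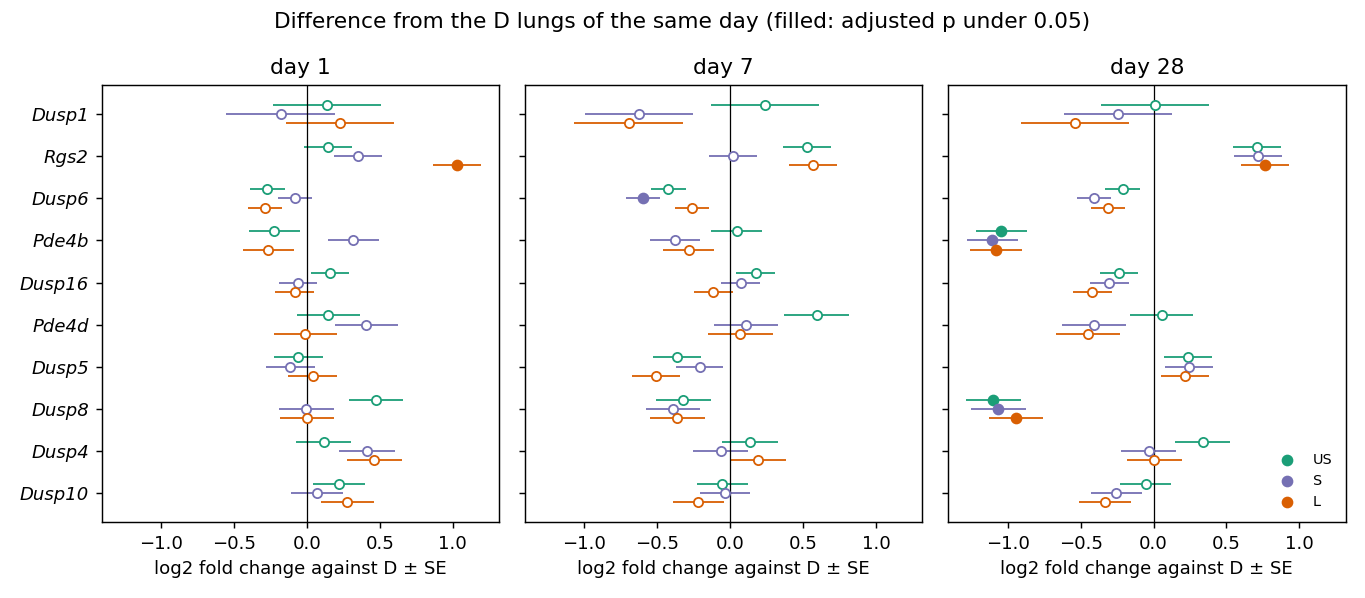
Fitted log2 fold change ± SE of each gene against the D lungs of the same day, for US, S and L at days 1, 7 and 28. Filled points have an adjusted p under 0.05. They are Rgs2 in L at day 1, Dusp6 in S at day 7, and Pde4b and Dusp8 in all 3 materials with Rgs2 in L at day 28.

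Earlier after instillation 1 member was called in each of 2 comparisons. Rgs2 rose in L lungs at day 1, with 171.6, 225.1 and 203.6 CPM against 94.8, 108.1 and 100.9 CPM in D. US lungs had 99.9, 118.7 and 102.3 CPM and S lungs 115.2, 139.3 and 118.8 CPM on that day, so every L library lay above all 9 others. The log2 fold change against D was 1.03 ± 0.17 in L (adjusted p = 0.00713), 0.35 ± 0.16 in S and 0.14 ± 0.16 in US. The call was lost without L replicate 3 or without any of the 3 D libraries (adjusted p up to 0.0922), in a fit of only the D and L groups of that day and in the 3 limma fits on TPM. Of all genes, 0.0237% were called in L against D at day 1, 0.0473% in S and 0.0887% in US. In the last 2 comparisons edgeR called 0 members, with 2 of 10 under an unadjusted p of 0.05 in each (16.1% of all genes in US and 21.0% in S), and DESeq2 called 0 in each.

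Dusp6 fell in S lungs at day 7. D libraries had 99.9, 121.8 and 104.5 CPM and S libraries 81.8, 72.3 and 69.1 CPM, a log2 fold change of -0.60 ± 0.12 (adjusted p = 0.0176). US lungs had 90.2, 88.0 and 69.2 CPM, also below every D library, with -0.43 ± 0.12 and an adjusted p of 0.0505. L lungs had 96.8, 97.4 and 80.7 CPM, a difference of -0.26 ± 0.12. The call for S was lost without D replicate 1 or 2 or S replicate 2 or 3 (adjusted p up to 0.162), in a fit of only the D and S groups of that day and in the 3 limma fits on TPM. S day 7 replicate 2, the deeply sequenced library, lay between the other S libraries. At day 7, 2.09% of all genes were called in US against D, 0.45% in S and 0.154% in L. EdgeR called 0 members in US and in L, with 4 and 3 under an unadjusted p of 0.05 (25.7% and 4.87% of all genes). DESeq2, whose share of all genes is not given, called 2 in US (Dusp6 and Rgs2) and 0 in L.

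Rgs2 at day 7 was 122.8, 100.5 and 145.0 CPM in D and 207.4, 152.7 and 178.5 CPM in US, where the groups did not overlap and the log2 fold change was 0.53 ± 0.16 (adjusted p = 0.0668). L lungs had 234.4, 133.4 and 183.6 CPM and overlapped with D (0.57 ± 0.16, adjusted p = 0.362). S lungs had 116.5, 159.0 and 109.8 CPM, within the range of D apart from 1 library. The summed level of 16 circadian clock genes was compared in the same groups. At day 1 it was 832 to 939 CPM in D, 817 to 1228 CPM in US, 1141 to 1551 CPM in S and 1145 to 1564 CPM in L. At day 7 it was 634 to 750 CPM in D, 1269 to 1767 CPM in US, 728 to 859 CPM in S and 1254 to 1528 CPM in L. At day 28 it was 605 to 629 CPM in D, 545 to 672 CPM in US, 630 to 766 CPM in S and 1010 to 1085 CPM in L. The sum pools clock genes that differed from D in both directions. Sacrifice times of day are not in the labels, and the part of the clock genes in the Rgs2 values was not tested.

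No pair of graphene oxide sizes differed in a member by edgeR in any of the 9 comparisons within a day, with 0 to 4 members under an unadjusted p of 0.05 in each. At day 1 these were 2, 2 and 2 members (S against US, L against US, L against S), where 13.7%, 6.27% and 10.4% of all genes were under it. At day 7 they were 4, 3 and 2 members, beside 13.2%, 15% and 6.69% of all genes. At day 28 they were 1, 1 and 0 members, beside 5.44%, 11.3% and 3.76%. The share of all genes called was 0.0177%, 0% and 0% at day 1 (S against US, L against US, L against S), 0.142%, 0.00592% and 0.154% at day 7, and 0%, 0.515% and 0.0651% at day 28. The smallest adjusted p of edgeR was that of Rgs2 in L against US at day 1, with a difference of 0.88 ± 0.16 (adjusted p = 0.0971). DESeq2 called 1 member there, Rgs2, and 0 in the other 8 comparisons. At day 28 the log2 difference of Pde4b was -0.06 for S against US (95% interval -0.42 to 0.30) and -0.03 for L against US (-0.39 to 0.32). For Dusp8 it was 0.04 (-0.35 to 0.42) and 0.16 (-0.23 to 0.54), and for Rgs2 0.01 (-0.33 to 0.34) and 0.06 (-0.28 to 0.39). A missed threshold does not show that the sizes act alike.

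Within a material, 5 members were called in D between days 7 and 28 and 5 in S between days 1 and 7, more than in the other 10 comparisons of days. In D lungs Pde4b rose from 81.5, 106.5 and 87.0 CPM at day 7 to the day 28 values given above, a log2 difference of 0.99 ± 0.18 (adjusted p = 0.0071). Dusp8 rose by 0.70 ± 0.19, Dusp16 by 0.54 ± 0.13 and Pde4d by 0.72 ± 0.22, and Rgs2 fell by 0.64 ± 0.17, which makes 5 of 10 members called where 15.6% of all genes were. Leaving out 1 library ended the call of Dusp8 in 6 of 6 fits, of Dusp16 and Pde4d in 5 (all but D day 7 replicate 3), of Rgs2 in 4 (D day 7 replicates 1 and 2, D day 28 replicates 2 and 3) and of Pde4b in 1 (D day 7 replicate 1), with adjusted p up to 0.196, 0.225, 0.231, 0.196 and 0.109. In D at day 1, Pde4b had 129.5, 105.5 and 118.5 CPM and Dusp8 27.9, 24.9 and 24.6 CPM, below every D library of day 28, but edgeR called 0 members between days 28 and 1 (4 under an unadjusted p of 0.05 beside 5.40% of all genes, 0.0769% of all genes called). It also called 0 members between days 7 and 1 of D (4 unadjusted beside 24.2% of all genes, 0% called), and DESeq2 called 0 in both comparisons.

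In S lungs 5 members fell from day 1 to day 7, where 41.4% of all genes were called. Pde4b went from 134.6, 146.5 and 144.5 CPM to 71.7, 81.3 and 65.9 CPM, a difference of -1.05 ± 0.18 (adjusted p = 0.000149), and the groups did not overlap. Pde4d fell by 0.88 ± 0.22, Dusp4, a nuclear phosphatase of ERK, by 0.55 ± 0.19, Dusp6 by 0.51 ± 0.12 and Dusp16 by 0.33 ± 0.13. The call of Dusp16 was lost in 6 of 6 fits without 1 library (adjusted p up to 0.189) and that of Dusp4 in 3 (S day 1 replicates 1 and 2, S day 7 replicate 3, up to 0.0816), while the other 3 genes kept theirs in each. At day 28 Pde4b, Pde4d and Dusp6 were still below day 1 of S, by 0.78 ± 0.17, 0.67 ± 0.22 and 0.37 ± 0.12 (9.4% of all genes called). The calls of Pde4d and Dusp6 were lost in 6 of 6 fits without 1 library (adjusted p up to 0.138 and 0.143) and that of Pde4b in 3 (S day 1 replicates 2 and 3, S day 28 replicate 2, up to 0.0698). From day 7 to day 28 of S edgeR called 0 members, with 0 under an unadjusted p of 0.05 (16.7% of all genes, 0.426% called), and DESeq2 called 0.

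In US lungs Dusp8 fell from 39.6, 28.8 and 33.9 CPM at day 1 to 18.3, 22.3 and 22.6 CPM at day 7, by 0.78 ± 0.19 (adjusted p = 0.0148). Rgs2 rose by 0.67 ± 0.16 and Dusp16 fell by 0.44 ± 0.13 over the same days (7.18% of all genes called). Dusp8 was still lower at day 28 than at day 1, by 0.86 ± 0.19 (adjusted p = 0.0199, 1.75% of all genes called). From day 1 to day 7, leaving out replicate 1 of either day ended the calls of Dusp8 and Rgs2 (adjusted p up to 0.105 and 0.0727), and 4 of 6 such fits ended that of Dusp16 (US day 1 replicates 1 and 3, US day 7 replicates 1 and 2, up to 0.251). The call of Dusp8 between days 1 and 28 was lost in 3 of 6 (US day 1 replicate 1, US day 28 replicates 1 and 3, up to 0.216). In L lungs the single member called was Dusp16, which fell by 0.49 ± 0.13 from day 1 to day 7 (adjusted p = 0.0289, 11.2% of all genes called), a call lost without replicate 1 or 2 of either day (up to 0.222). Between days 7 and 28 edgeR called 0 members in US (1 unadjusted beside 13.2% of all genes, 0.887% called) and 0 in L (1 unadjusted beside 7.55% of all genes, 0% called), and DESeq2 called 0 in both. Between days 1 and 28 of L edgeR called 0 (2 unadjusted beside 18.2% of all genes, 1.12% called) and DESeq2 called 1, Rgs2.

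Whether a material changed the course over days was tested as the difference of 2 day differences. Dusp8 differed between days 28 and 1 by 0.71 in D, which was not called (adjusted p = 0.224), and by -0.86 in US, with a difference of -1.57 ± 0.26 (adjusted p = 0.0141), where 0.0473% of all genes were called. Pde4b differed by 0.64 in D, also not called (adjusted p = 0.253), and by -0.78 in S, with a difference of -1.42 ± 0.25 (adjusted p = 0.0098), where 0.195% were called. The same quantity for Pde4b was -0.82 in US and in L (adjusted p = 0.247 and 0.203), and for Dusp8 -1.06 in S and -0.94 in L (adjusted p = 0.086 and 0.161), so the course of the materials was not shown to differ from one another.

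The phosphatases not called at day 28 had distinct profiles. Dusp5, a nuclear phosphatase specific for ERK, lay between 9.12 and 16.9 CPM and had its 3 D libraries of day 7 at 16.6, 16.9 and 14.9 CPM. L lungs of that day had 13.5, 11.2 and 9.63 CPM, lower in all 3 libraries, with a difference of -0.51 ± 0.17 (adjusted p = 0.581). Dusp4 lay between 7.32 and 15.6 CPM, and Dusp10, a phosphatase of JNK and p38, between 6.35 and 13.0 CPM. Both were low in counts, and neither was called against D on any day.

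Dusp1 varied more within groups than between them. In US lungs at day 1 it had 370.1, 122.9 and 148.7 CPM, and at day 7 it had 586.4, 208.4 and 416.3 CPM. The D lungs of day 28 had 339.6, 197.6 and 202.6 CPM, and overlapped with US at 267.8, 329.1 and 139.3 CPM. S lungs, at 215.3, 247.4 and 165.2 CPM, also overlapped with D. L lungs had 186.7, 189.3 and 142.6 CPM, below every D library, with a log2 fold change of -0.54 ± 0.37 that edgeR did not call (adjusted p = 0.459). Its SD within groups was 0.50 on the log2 scale, at the 97.7th percentile of tested genes, where the median gene had 0.21. The SD of Dusp6 was 0.14, at the 23.1st percentile. Differences of Dusp1 against D at day 28 accordingly had an SE of 0.37, where those of Dusp6 had 0.12. Over the 36 libraries the genes with the profile most like Dusp1 were Btg2 (r = 0.886), Sik1 (0.861) and Cyr61 (0.779), out of 14708 ranked. After subtracting group means the 3 correlations were 0.936, 0.902 and 0.890, so the likeness lay in differences between libraries of 1 group.

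**Figure D4:**
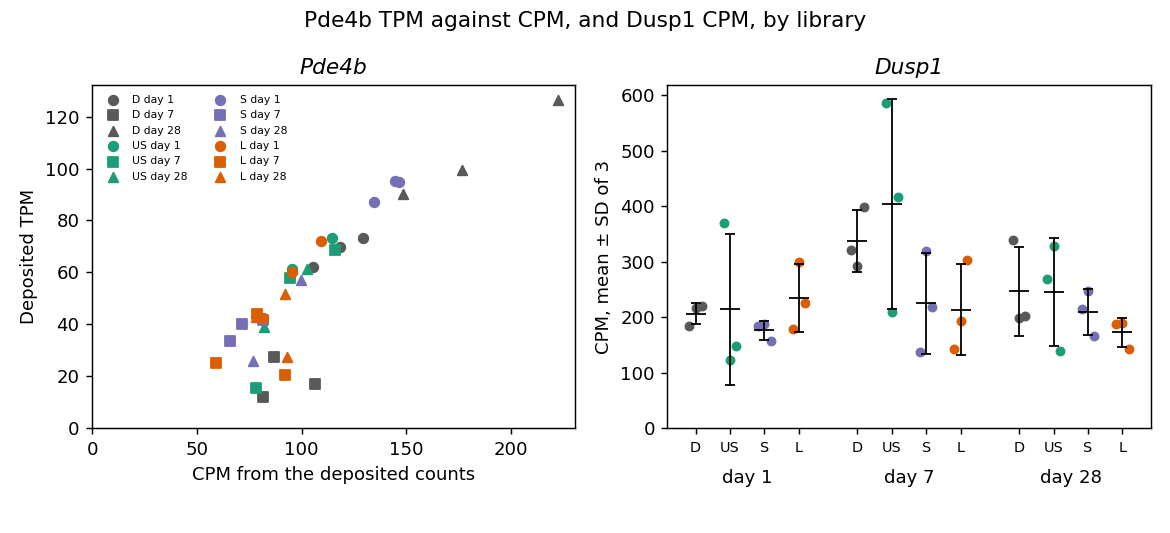
Left, Pde4b as deposited TPM against CPM from the counts, 1 point per library; right, Dusp1 CPM in each library by group. Pde4b TPM per CPM differs up to 4.45 times between libraries, and the 3 US libraries of day 7 range from 208.4 to 586.4 CPM for Dusp1.

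Likeness was measured for the other members in the same way, as Pearson's r of log2 CPM over 36 libraries. These libraries share groups and depth, and the values are descriptions. Dusp8 was most like Klf4 (0.887), Dnajb1 (0.854) and Dll1 (0.793), and Pde4b like Skil (0.835), Ccdc117 (0.821) and Dnajb4 (0.809). Rgs2 was most like Pde2a (0.693), Bhlhe41 (0.680) and Nr1d1 (0.671), the last 2 of which belong to the circadian clock. Within groups these 3 values fell to 0.178, -0.210 and -0.152, so they followed the group means. Dusp6 was most like Trib2 (0.775), Dusp4 like Tbx4 (0.784), Dusp5 like Med9 (0.774) and Dusp10 like Hbb-bt (0.648). Among the members themselves Dusp8 and Pde4b had r = 0.695, Dusp16 and Pde4d 0.800, and Rgs2 had -0.638 with Dusp8 and -0.532 with Pde4b. Within groups these values were 0.507, 0.788, -0.538 and -0.193, so the last of them mostly followed the group means.

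Pde4d and Dusp16 followed a property of the library. Pde4d, the other PDE4 gene, spans chromosome 13 from 108449948 to 109953461, and Dusp16 chromosome 6 from 134715473 to 134792625. In each library the log2 deviation of all genes was set against transcript length, and the slope, per 10-fold length, is here called the length slope. Its group median ranged from -0.49 in D at day 7 to 0.50 in S at day 1, and at day 28 it was 0.21 in D, 0.09 in US, -0.05 in S and -0.13 in L. Over 36 libraries Pde4d had r = 0.915 with the slope (rho = 0.922, 0.895 without the 2 farthest libraries) and Dusp16 r = 0.813 (rho = 0.839, 0.748 without them). Pde4b had 0.616, Dusp5 -0.677, Dusp4 0.585, Dusp8 0.309, Rgs2 -0.219 and Dusp1 -0.031. After subtracting group means r was 0.885 for Pde4d and 0.794 for Dusp16. In the same order as above the others then had 0.458, -0.598, 0.614, -0.079, -0.087 and 0.346. Since libraries fall into groups that differ in the slope, no p is given. With trends on GC content and length removed, an alternative chosen after seeing the data, some calls of both genes were lost. The difference of Dusp16 in D between days 28 and 7 went from 0.54 to 0.30 (adjusted p = 0.0583), from day 1 to day 7 it went from -0.33 to -0.0025 in S (adjusted p = 0.989) and from -0.49 to -0.28 in L (adjusted p = 0.0636). The differences of Pde4d stayed nearer their size, at 0.60 instead of 0.72 in D between days 28 and 7 (adjusted p = 0.0607) and -0.59 instead of -0.67 in S between days 28 and 1 (adjusted p = 0.0515). From day 1 to day 7 of S, Pde4d kept its call at -0.71. The calls of Pde4b and Dusp8 at day 28 were kept in all 3 materials.

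**Figure D5:**
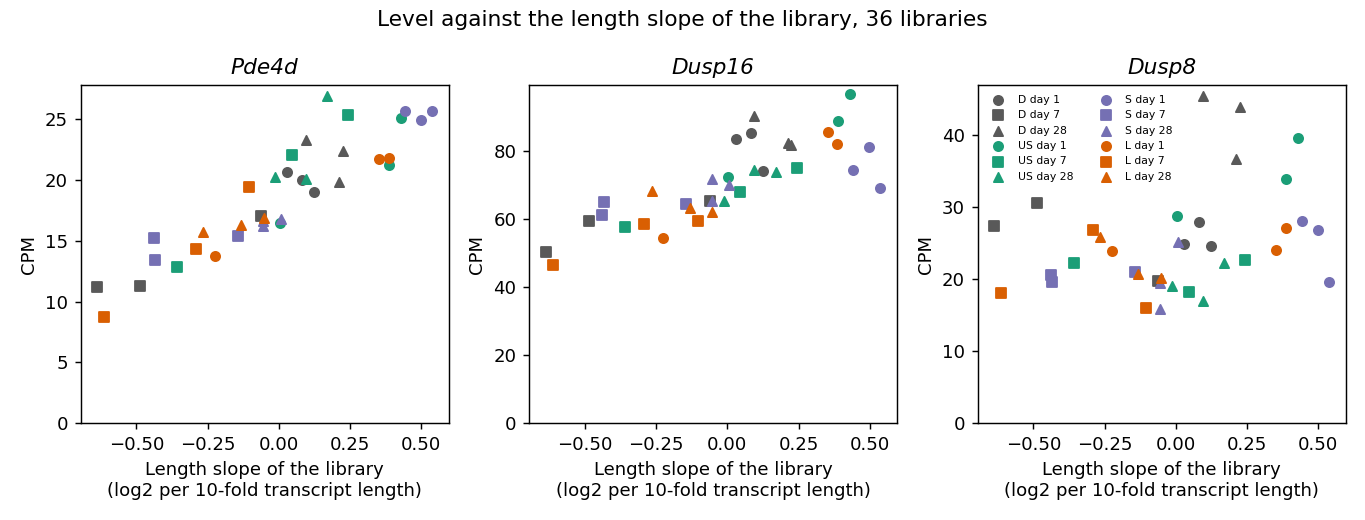
CPM of Pde4d, Dusp16 and Dusp8 against the length slope of each of the 36 libraries (log2 deviation per 10-fold transcript length), coloured by material. Pde4d and Dusp16 rise along the slope (r = 0.915 and 0.813), while Dusp8 does so less (r = 0.309), with the D libraries of day 28 at 36.7 to 45.5 CPM and 1 other library within that range.

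Pde4b also differed between the deposited tables. Its TPM divided by its CPM ranged from 0.148 to 0.659 over the libraries, 4.45 times, where the other 9 members ranged 1.28 to 1.49 times. The ratio was 0.148 to 0.314 in D at day 7 and 0.647 to 0.659 in S at day 1. At day 28 it was 0.562 to 0.608 in D, 0.476 to 0.600 in US, 0.334 to 0.571 in S and 0.296 to 0.56 in L. The TPM means of day 28 therefore carry this ratio as well as the counts. TPM depends on the transcript lengths assigned in each library, and which of its 4 RefSeq starts was used is not told by the counts. At day 7 Pde4b in S was below D on counts, -0.38 ± 0.17, and above D on log2(TPM + 1), 1.06, and neither was called (adjusted p = 0.491 and 0.306).

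Lists of other genes of these pathways were compared with D at day 28. Of 3 other MAP kinase phosphatases, 8 tested ERK feedback inhibitors, such as the Sprouty and Spred genes, and 10 MAP kinases, edgeR and DESeq2 called 0 in US, S and L. Under an unadjusted p of 0.05 were 6.02%, 9.87% and 16.7% of all genes, and 0, 0 and 1 of the phosphatases, 1, 2 and 1 of the feedback inhibitors and 1, 1 and 0 of the kinases. Of 10 atypical dual-specificity phosphatases edgeR called 0 in each (2, 2 and 3 unadjusted), and DESeq2 called 1 lower in L, Dusp19. Of 14 other cyclic AMP phosphodiesterases edgeR called 0 in US and S (2 unadjusted in each, and DESeq2 called 0) and 1 lower in L, where DESeq2 called 1 higher, Pde2a, and 1 lower. The lower gene was Pde3a by both tools, which degrades cyclic AMP in muscle and platelets, at 127.5 ± 22.7 CPM against 176.1 ± 16.1 CPM in D. Of 6 tested RGS genes of the R4 class, that of Rgs2, edgeR called 1, also in L only. This was Rgs1, a gene of lymphocytes, with a log2 difference of 2.14 ± 0.44, and the summed B cell markers were 280 to 330 CPM in L and 159 to 240 CPM in D, whose part in this result was not tested. That a gene was called in L and not in US or S does not show that the materials differ in it.

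Genes that respond to cyclic AMP through CREB had a median log2 difference of -0.12 in US, -0.47 in S and -0.26 in L, against 0.01, 0.00 and 0.00 over all genes. Of these 10 edgeR called 0 in US (1 unadjusted, and DESeq2 called 1, Areg), 0 in S (4 unadjusted, and DESeq2 called 3) and 2 in L. The 2 were Crem, which encodes activators and repressors of cyclic AMP response, at -0.59 ± 0.13 (adjusted p = 0.0149), and Nr4a3, a nuclear receptor gene, at -1.13 ± 0.29 (adjusted p = 0.0314). Of 19 tested immediate-early genes, Klf4 fell in S (80.8 ± 26.03 against 192.5 ± 43.6 CPM, adjusted p = 0.0103) and in L (100.3 ± 10.9 CPM, adjusted p = 0.0231). In US it had 87.6 ± 8.63 CPM and was not called (adjusted p = 0.107), and the median of the list lay above 0, at 0.28, 0.11 and 0.15. Of 16 clock genes edgeR called 0 in US (5 unadjusted, and DESeq2 called 1), 3 higher and 1 lower in S and 7 higher and 5 lower in L.

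Markers of cell types that express PDE4B or Rgs2 were compared at day 28 by their summed CPM. Neutrophil markers were at 107.1 to 213.7 CPM in D, 154 to 185 in US, 162 to 189 in S and 145 to 268 in L, which overlap. Alveolar macrophage markers were at 1328 to 1408 CPM in D, 1747 to 1948 in US and 1847 to 2238 in S, and at 1175 to 1656 in L. Endothelial markers overlapped between D (3502 to 4119 CPM) and each material, and smooth muscle markers were at 452 to 502 CPM in D, 429 to 493 CPM in US, 430 to 434 CPM in S and 395 to 424 CPM in L, with S and L below every D library. Markers of T and NK cells were at 75.9 to 91.8 CPM in D and 83.2 to 172.5 CPM in US, which overlap, and at 92.5 to 108.2 CPM in S and 94.5 to 106.4 CPM in L, which lie above D. B cell markers were at 159 to 240 CPM in D, 177 to 198 in US and 220 to 316 in S, which overlap. In L they were at 280 to 330 CPM, above every D library. The part of these cell types in the values of Pde4b, Dusp8 and Rgs2 was not tested.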

How the data were processed

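Stranded poly-A libraries of lung tissue, 36 in all, were sequenced. The authors deposited a table of raw read counts per gene and, for each library, TPM values per gene. STAR 2.5.1b, featureCounts 1.5.1, StringTie 1.3.3 and the builds GRCh37 and GRCm38 are named in the submitters' processing notes, while neither the annotation release nor the strand setting is given in the sources used here. Without that setting, reads of Dusp5, Dusp8, Dusp10, Dusp16 and Pde4d cannot be told from those of opposite-strand genes that overlap them. Pde4d also overlaps 3 genes on its own strand, which the setting would not separate.

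CPM was the count divided by the library total. The counts of all 36 libraries entered 1 fit with edgeR 4.0.16 (TMM scaling, quasi-likelihood test, two-sided, R 4.3.3) after edgeR's filter on low counts, which kept 16903 of 46078 genes, with Benjamini-Hochberg adjustment over these genes and a threshold of 0.05. The 39 contrasts compared materials, days and their interactions. The fit was checked on simulated counts. TPM was tested with limma 3.58.1 on log2(TPM + 1), and DESeq2 1.42.0 was an alternative to edgeR, beside other scalings, filters, designs and single libraries left out.

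The 10 genes and all gene lists were chosen with earlier results of these data known. Beyond the 10, at most 3 genes of a list with the smallest p, and the 3 genes most correlated with each of the 10, are named. Chi-square comparison of counts found no 2 libraries of a group that agreed within sampling noise (lowest chi-square per degree of freedom 6.11). Promoter windows came from RefSeq (GRCm38.p6) and exons from GENCODE vM21. Libraries of day 90 and of carbon nanotubes were not analysed here.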

Additional observations from a re-analysis of the deposited data

Results flagged for a closer look

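In 2 cases the change from day 1 to day 28 differed between an exposed group and D by an interaction test in edgeR. For Dusp8 in US against D the difference of the 2 day differences was -1.57 ± 0.26 (SE) on the log2 scale (adjusted p = 0.0141), with means of 25.8 and 42.0 CPM in D at days 1 and 28 (not called, adjusted p = 0.224) and of 34.1 and 19.4 CPM in US. It kept its call in all 9 alternative settings and lost it in 5 of 12 fits that left out 1 library (D day 1 replicate 2 or 3, D day 28 replicate 2, US day 28 replicate 1 or 3; adjusted p up to 0.096). For Pde4b in S against D it was -1.42 ± 0.25 (adjusted p = 0.0098), with means of 117.8 and 182.4 CPM in D (not called, adjusted p = 0.253) and of 141.9 and 85.2 CPM in S. That call was lost in the 3 fits on TPM (adjusted p up to 0.295) and without D day 1 replicate 2, D day 28 replicate 1 or S day 28 replicate 2 (adjusted p up to 0.0675).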

How the results depend on the processing

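The numbers are members called, with the value of the edgeR fit in brackets. The share of all genes called also changes with the setting and is not given beside them. Nothing about the members is therefore read from a higher or lower count. No called value of a member changed sign under any alternative or with any 1 library left out. Fits of only the groups compared gave 1 in S against D at day 1 (0), 0 in L at day 1 (1), 0 in S at day 7 (1), 5 in L at day 28 (3), 1 in D for days 7 and 28 against day 1 (0 each), 0 in US for day 7 (3) and day 28 (1) against day 1, 0 in L for day 7 against day 1 (1) and 4 over the interactions (2). The 3 limma fits on TPM gave 0 in L against D at day 1 (1), 0 in S at day 7 (1), 1 in S at day 28 (2), 1 in L at day 28 (3), 1 in US for day 7 against day 1 (3), 0 in L for day 7 against day 1 (1) and 1 over the interactions (2). In US against D at day 28 they gave 1, 1 and, without a filter, 0 (2), and in S for day 28 against day 1 likewise 1, 1 and 0 (3). Without a filter on TPM there were 2 in D for day 28 against day 7 (5), 0 in US for day 28 against day 1 (1) and 3 in S for day 7 against day 1 (5). DESeq2 gave 2 in US against D at day 7 (0) and 4 over the interactions (2). With GC and length trends removed, chosen after seeing the data, there was 1 in US against D at day 7 (0), 3 in D for day 28 against day 7 (5) and 0 in L for day 7 against day 1 (1). DESeq2, no filter on counts and the trends removed each gave 1 in L for day 28 against day 1 and 1 over the size comparisons (0 each).

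Leaving out 1 library gave 0 to 2 members in US against D at day 28 (2), 1 to 3 in S at day 28 (2), 0 to 1 in L at day 1, S at day 7, L at day 7 and over the size comparisons, 0 to 3 in US at day 7, and 0 to 4 over the interactions. For days it gave 0 to 5 in D for day 28 against day 7, 0 to 2 in D for day 7 against day 1, 0 to 3 and 0 to 2 in US for days 7 and 28 against day 1, 3 to 6 and 0 to 1 in S, and 0 to 2 in L for both.

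The replicate numbers do not pair the libraries: 52 of 198 same-numbered pairs had a correlation above 0.1 (range -0.55 to 0.49). A library was also matched to the 3 libraries of another group. In 65 of 198 such matchings it correlated best with its own number. With the replicate block, S for day 28 against day 1 had 1 member called (3), and the other counts stayed within 1.5 times. The lowest median levels were those of Dusp10 and Dusp4, at 9.09 and 11.5 CPM.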
